A study of Drosophila melanogaster with 8 samples.

Results

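Digestive enzyme genes were followed across the nuclei of whole *Drosophila* larvae. The genes were all those in the deposited matrix whose symbols start with *Jon* and a digit, contain *Mal-A* or *Amy-*, end in *Try*, or consist of *Lys* and 1 capital letter. This rule uses names only and took 39 of 12610 genes, namely 16 *Jon* genes, 8 *Mal-A* genes, 7 *Try* genes, 6 *Lys* genes and 2 *Amy* genes. Nuclei were sequenced from 8 samples of *w1118* larvae, a white-eyed laboratory strain, in the wandering stage of the 3rd instar and 5 days after egg deposition. Each sample pooled 16 larvae, 8 males and 8 females, and gave 1 droplet library, so a value per library is a mean over animals. All libraries have 1 wild-type condition, and the comparisons below are between groups of nuclei within the libraries. The groups were the enterocytes (cluster 3), the gut stem cells (cluster 21), the fat body (clusters 4, 13 and 15) and the other 23 clusters, all named by the authors. The authors clustered the nuclei on the same counts, so the tests measure only how steady a difference was over the libraries.

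Larvae digest food in the midgut, where enterocytes secrete proteases, carbohydrate-cleaving enzymes and lysozymes into the lumen and take up the products. The Jonah proteins and the trypsins are serine proteases, which cut dietary proteins. Amylases cut starch into short sugars, maltases of the Mal-A family cut these sugars to glucose, and the lysozymes named here cut bacterial cell walls. Stretches of the midgut along its length are known to make different sets of enzymes. Intestinal stem cells divide to supply new gut cells, and the fat body stores nutrients and secretes blood proteins.

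The genes lie in 11 groups of neighbours or single positions on the BDGP6.54 assembly, found by joining members less than 25000 bases apart. The maltase genes occupy chromosome 2R from 8449664 to 8473961, the trypsin genes 2R from 11337797 to 11357537 and the amylase genes 2R from 17118636 to 17126369. The lysozyme genes lie on 3L from 1194739 to 1228238, where *LysB*, *LysE* and *LysS* sit within the gene *mwh* on its own strand. Among the *Jon* groups, *Jon25B* lies on 2L from 4949941 to 4955144, *Jon65A* on 3L from 6039155 to 6054443 and *Jon99C* on 3R from 29922216 to 29926189. Near-identical neighbours such as *Amy-p* and *Amy-d*, *LysB* and *LysD*, or *Jon99Cii* and *Jon99Ciii* can share reads, so the split of counts within such a pair is uncertain.

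The 8 libraries held 3090 to 5405 nuclei and 3815618 to 6488757 unique molecular identifiers (UMIs, each marking 1 RNA molecule) after the authors' subtraction of ambient RNA. Of 30819 nuclei, 2055 were enterocytes, 452 gut stem cells, 3429 fat body nuclei and 24883 nuclei of other clusters, with median depths of 636, 1429, 898 and 972 UMIs. Replicate 4 gave 1508 of the enterocyte nuclei, 73.4% of them, and the other libraries gave 21 to 189 each. Replicate 2 gave only 14 fat body nuclei, against 304 to 683 in the other libraries. The barcode sequences of 2236 nuclei occurred in 2 or more libraries, 28 of them in enterocytes, 6 in gut stem cells and 53 in fat body.

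The cluster names were checked against marker genes. The fat body clusters carried their markers, the *Fbp* and *Lsp* storage protein genes, at 14.1% to 17.0% of UMIs in 7 libraries and at 1.006% in replicate 2. The gut stem cells carried *Sox21a* at 101 to 312 counts per 1000000 UMIs (CPM) and *esg* at 53.8 to 192 CPM, against 0.568 to 2.14 CPM and 6.18 to 20.2 CPM in other clusters. Pooled over libraries, *klu* was also higher (937 against 279 CPM). *Dl* (664 against 593 CPM) and *N* (1972 against 1767 CPM) differed little, and *sc* was lower (1.28 against 5.75 CPM). Of these 6 stem cell markers, 5 were tested by edgeR's quasi-likelihood test, described below, which called 3 higher and 1 lower. The enterocyte markers were weak in the cluster named for them. A list of 10 such markers summed to 0.0320% to 0.177% of UMIs in enterocytes (median 0.0578%), against 0.0435% to 0.0708% in other clusters, and to a median of 0.127% in gut stem cells. Within a library the sum was lower in enterocytes than in other clusters in replicates 3, 4, 7 and 8. The junction gene *mesh* stood at 787 CPM in enterocytes of replicate 1 and at 33.2 CPM in those of replicate 4. In replicate 4, 7 of the 10 markers were still higher in enterocytes than in other clusters, such as *mex1* (84.9 against 4.90 CPM) and *mesh* (33.2 against 6.49 CPM), while *Myo31DF* (32.2 against 111 CPM), *nub* (2.39 against 163 CPM) and *Myo61F* (86.5 against 214 CPM) were lower. In the other libraries 2 to 7 of the 10 were higher. Because the markers were this mixed, "enterocytes" below means the nuclei of cluster 3. In that library the same nuclei held 3.32% fat body markers, 2.45% salivary glue transcripts and 3.70% larval cuticle transcripts, against 0.412%, 0.319% and 9.33% in its other clusters. The summed share, the counts of calls and the main genes of enterocytes are given with and without replicate 4.

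The 39 genes had 131504 UMIs in all. The *Jon* genes gave 64.2% of them, *Lys* 20.04%, *Try* 10.7%, *Mal-A* 3.90% and *Amy* 1.17%. Counts per gene ran from 36.3 UMIs for *Mal-A2* to 17999 for *Jon99Cii*, with a median of 853. There were 17 genes with over 1000 UMIs, while 12 genes had fewer than 150. Enterocytes held 42.8% of the enzyme UMIs, fat body 21.6%, gut stem cells 0.860% and the other clusters 34.7%. By the pooled level of each group, 37 genes were highest in enterocytes, and the other 2, *Mal-A5* and *Mal-A6*, were highest in fat body. Without replicate 4, 32 were highest in enterocytes, 5 in fat body, 1 in gut stem cells and 1 in other clusters. The pooled level in enterocytes exceeded that in other clusters by 1.21 times for *LysP* to 43.3 times for *Jon65Aiii* among those 37.

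Enterocytes carried the largest summed share of the enzyme genes in every library. In replicates 1 to 8 the genes made up 4.94%, 0.991%, 0.291%, 3.93%, 0.608%, 1.05%, 0.768% and 3.48% of the UMIs in enterocytes. Fat body followed with 1.33%, 0.212%, 0.210%, 1.31%, 0.604%, 0.516%, 0.190% and 0.232%, and these values overlapped with those of enterocytes. Gut stem cells had 0.240%, 0.238%, 0.168%, 0.0864%, 0.0992%, 0.0894%, 0.113% and 0.146%. The other clusters had 0.210%, 0.182%, 0.146%, 0.246%, 0.0541%, 0.136%, 0.120% and 0.0881%. Replicates 1, 4 and 8 were the high libraries for enterocytes, and replicates 1 and 4 for fat body. The lowest enterocyte value, that of replicate 3, still lay above the highest value of gut stem cells and of other clusters.

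**Figure D1:**
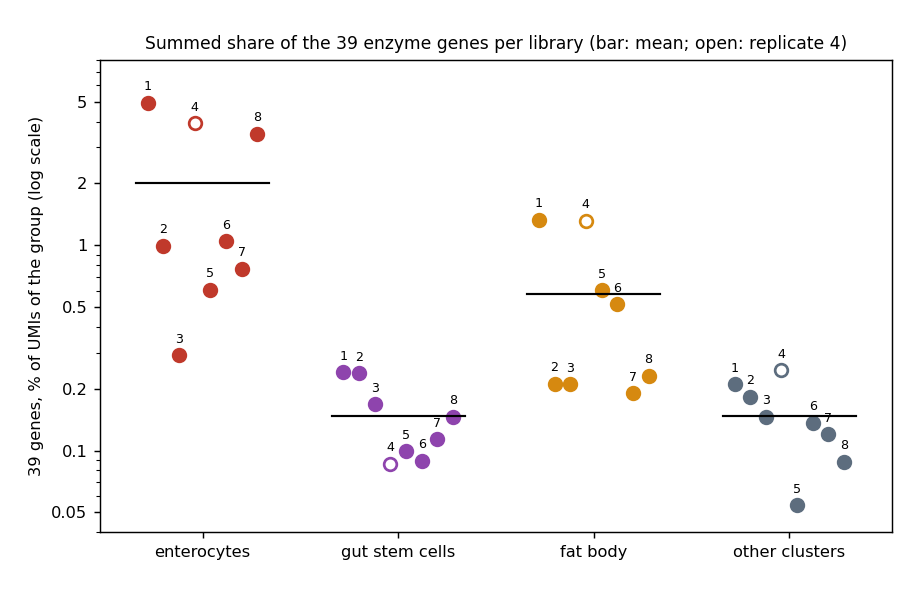
Summed share of the 39 enzyme genes, in percent of a group's UMIs on a log axis, in enterocytes, gut stem cells, fat body and other clusters of the 8 libraries. Points carry the replicate number, replicate 4 is open and bars are means. Enterocyte values ran from 0.291% to 4.94%, above all values of gut stem cells and other clusters.

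The enterocyte share averaged 2.01 ± 1.81% (SD, n = 8), and 1.73 ± 1.76% without replicate 4. It was 0.576 ± 0.487% in fat body, 0.148 ± 0.0631% in gut stem cells and 0.148 ± 0.0633% in other clusters. Within a library, enterocytes exceeded fat body by a median of 3.34 times (1.006 to 15.03), gut stem cells by 9.24 times (1.73 to 45.5) and other clusters by 9.46 times (1.99 to 39.5), each in 8 of 8 libraries. Fat body exceeded other clusters in 8 of 8 libraries by a median of 3.21 times (1.16 to 11.2). In replicates 3 and 7 this rested on the *Mal-A* genes, at 0.09035% and 0.1037% of fat body UMIs. Every other family lay lower in fat body than in other clusters there, such as *Jon* (0.0826% against 0.0983%, and 0.0692% against 0.0942%). In the other libraries the *Jon* share was higher in fat body. Gut stem cells exceeded other clusters in 5 of 8, with a median ratio of 1.15 (0.351 to 1.83), so their share did not differ from that of the other clusters beyond the spread of the libraries.

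Enzyme UMIs were found in all 28 clusters. The share was 3.55% in cluster 3 and 1.60% in cluster 15, but 0.284% and 0.270% in fat body clusters 4 and 13 and 0.152% in the gut stem cells. In clusters 4 and 13 the *Mal-A* genes gave 873 and 1076 CPM, beside 1360 and 1110 CPM from the *Jon* genes. The other 23 clusters ran from 0.0480% in cluster 19 to 0.436% in cluster 24, the gonad, with a median of 0.153%. The share in tissues with no known digestive role, such as the 5 neuron clusters with 0.158% to 0.196%, gives the level below which a share was not read as expression. The gut stem cells lay just below the neurons. This level is not sharp, as the hemocytes, with 0.230%, and the gonad stood above the neurons. The gonad also stood above fat body clusters 4 and 13. Cluster 11, a mixed cluster, held 0.320%, but 0.0472% without replicate 4.

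**Figure D2:**
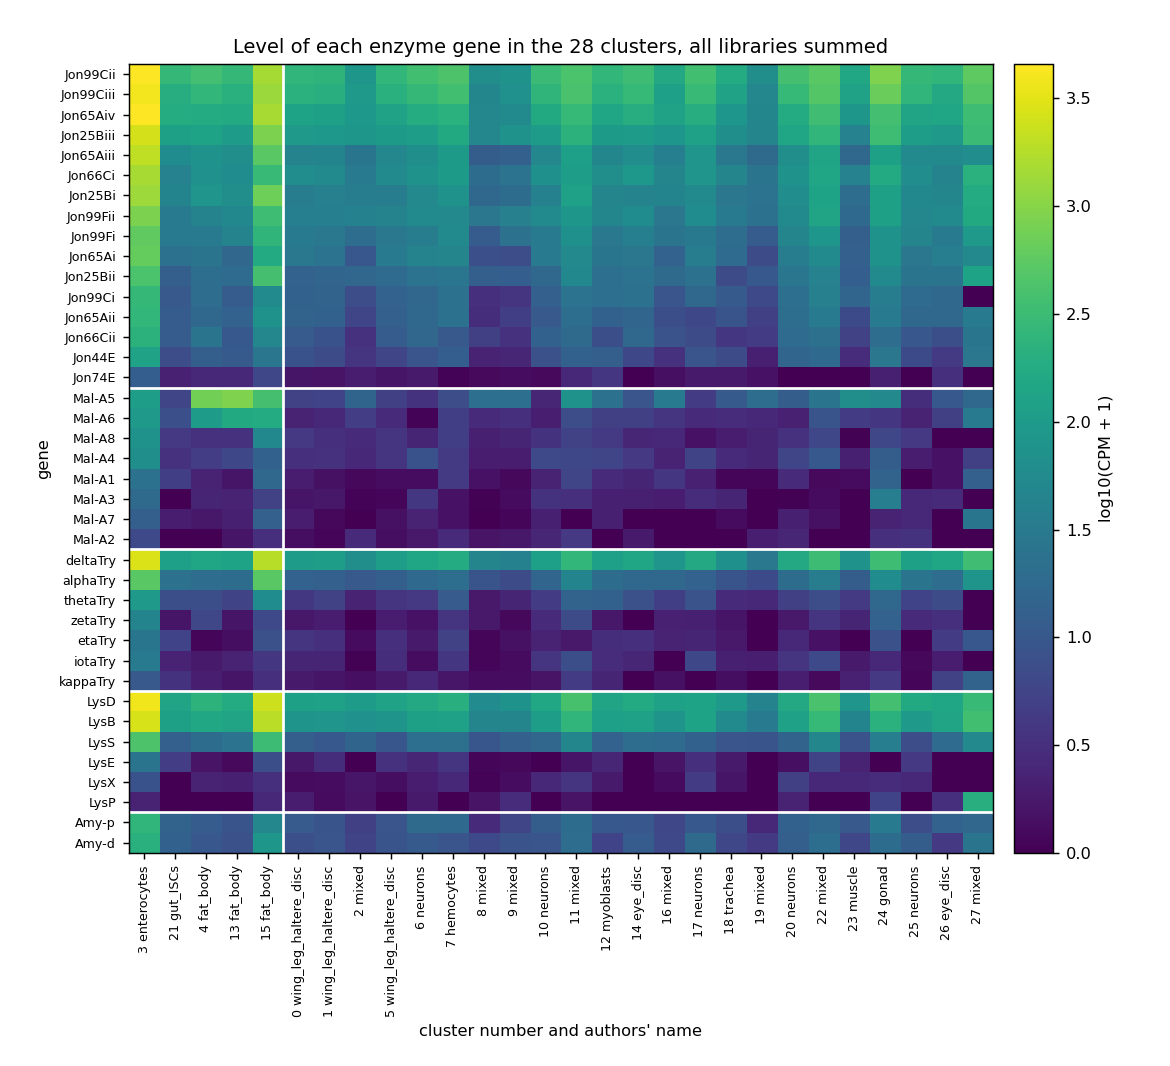
Level of each enzyme gene as log10(CPM + 1) in the 28 clusters, summed over all libraries, with enterocytes, gut stem cells and fat body left of the white line and families separated by white lines. Cluster 3 was the highest cluster for 32 genes and cluster 15 for 2, and *Mal-A5* was highest in fat body clusters 4 and 13.

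The share of nuclei with an enzyme UMI depended on depth. A count of at least 1 was found in 77.0 ± 19.6% of enterocyte nuclei, 81.7 ± 9.95% of gut stem cells, 78.0 ± 15.7% of fat body nuclei and 50.7 ± 10.6% of nuclei of other clusters (SD, n = 8). When each nucleus was thinned to 300 UMIs, the shares were 70.0 ± 21.9%, 34.1 ± 12.2%, 51.3 ± 19.6% and 24.7 ± 6.79%. Thinning left out 81, 0, 280 and 816 shallower nuclei of the 4 groups. In gut stem cells, the deepest group, it brought the share near that of other clusters.

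Each gene was compared between enterocytes and other clusters on sums of counts per library. The counts are 3′ tags and are not corrected for gene length, so levels in CPM compare 1 gene between groups and not genes with each other. edgeR's quasi-likelihood test (7576 genes tested, adjusted by Benjamini-Hochberg) called 23 enzyme genes higher in enterocytes and 0 lower, and 11.5% of all tested genes were called higher. These 23 were all that passed the filter on low counts, which a gene that is high in enterocytes passes more easily, and 16 did not pass it. The calls covered 15 of 16 *Jon* genes, 2 of 7 *Try* genes, 3 of 6 *Lys* genes, both *Amy* genes and 1 of 8 *Mal-A* genes. Their log2 fold changes ran from 2.34 for *Mal-A5* to 4.98 for *Jon65Aiii*, with a median of 3.92 against -0.01 over all genes tested. Without replicate 4 the same 23 genes were called. With DESeq2's size factors in place of TMM they all stayed higher too, although the calls over all genes shifted to 1646 higher and 436 lower, against 875 and 852 with TMM. The exact permutation test over libraries, whose smallest p is 0.00781, found 16 of 39 genes higher in all 8 libraries, but none passed adjustment over all genes (adjusted p = 0.0738 at best).

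Among the Jonah proteases, *Jon99Cii* was the most abundant gene. Its level in enterocytes of replicates 1 to 8 was 1637, 1280, 265, 5434, 1813, 1858, 1865 and 6966 CPM. In other clusters it ran from 108 through a median of 258 to 355 CPM, so enterocytes were higher within each of the 8 libraries, although the lowest enterocyte value overlapped with the range of other clusters. edgeR's quasi-likelihood test gave a log2 fold change of 3.42 (SE 0.60, adjusted p = 0.000185), and 2.96 without replicate 4. *Jon65Aiv*, another Jonah protease, had 14823, 967, 600, 4074, 216, 1044, 397 and 2453 CPM in enterocytes. Other clusters held 31.2 to 250 CPM of it, so the ranges overlapped, and replicate 1 stood far above the rest. Its log2 fold change was 4.62 (SE 0.86, edgeR adjusted p = 0.000391) and 4.57 without replicate 4. *Jon66Ci* was highest in replicate 8, with 7208 CPM, against 79.1 to 1554 CPM in enterocytes of the other libraries and 36.8 to 78.6 CPM in other clusters. In replicate 8, 3 of 67 enterocyte nuclei held 80.4% of the enzyme UMIs, and *Jon66Ci* made up 30.3%, 15.2% and 23.8% of theirs. *Jon25Biii* had 120 to 4251 CPM in enterocytes (median 813), against 56.1 to 155 CPM in other clusters.

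The lysozymes and trypsins were high in the enterocytes of replicates 1 and 4. *LysD* had 4443, 1033, 446, 4515, 545, 809, 660 and 413 CPM in enterocytes of replicates 1 to 8, against 32.3 to 292 CPM in other clusters, with no overlap. Its log2 fold change was 3.70 (SE 0.73, edgeR adjusted p = 0.000636) and 3.23 without replicate 4. *LysB*, its neighbour, had 201 to 3997 CPM in enterocytes (median 523), against 24.8 to 188 CPM in other clusters, and *LysS* had 11.5 to 780 CPM against 1.86 to 37.0 CPM. The trypsin gene *deltaTry* had 4707, 897, 322, 3239, 119, 1153, 536 and 1320 CPM in enterocytes. In other clusters it had 28.6 to 212 CPM, which overlapped with the lowest enterocyte value, and the log2 fold change was 3.90 (SE 0.72, edgeR adjusted p = 0.000336), or 3.61 without replicate 4. *alphaTry* had 8.89 to 623 CPM in enterocytes (median 168), against 3.10 to 33.7 CPM in other clusters. *thetaTry* and *zetaTry* did not pass the filter. *thetaTry* was at 0 in 4 of the 8 enterocyte sums, and *zetaTry* had 59.3 CPM in replicate 4 but 0 to 4.79 CPM in the other libraries.

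The amylases followed another order of libraries. *Amy-p* had 38.5, 36.1, 19.6, 284, 0, 15.7, 44.5 and 1219 CPM in enterocytes of replicates 1 to 8, against 2.85 to 14.9 CPM in other clusters. Replicate 8 stood alone at the top, and the groups overlapped through replicate 5. The replicate 8 value rests on few nuclei. Of its 67 enterocyte nuclei, the 3 with an enzyme share of at least 10% held 37.5, 3.91 and 32.2 UMIs of the 2 *Amy* genes. The log2 fold change was 4.46 (SE 0.74, edgeR adjusted p = 0.00011) and 4.23 without replicate 4. *Amy-d* had 3.69 to 303 CPM in enterocytes (median 101), against 2.43 to 16.1 CPM in other clusters, with a log2 fold change of 3.995, or 3.48 without replicate 4.

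The levels of fat body and salivary glue markers were raised in the same nuclei. In enterocytes against other clusters, 6 of 6 fat body markers were higher by 2.46 to 3.06 on the log2 scale and 6 of 6 glue genes by 2.72 to 3.15 (edgeR's quasi-likelihood test). Summed fat body markers ran from 0.301% to 3.50% of UMIs in enterocytes, against 0.170% to 0.412% in other clusters. Summed glue genes ran from 0.0958% to 2.45%, against 0.0233% to 0.319%. All 4 cuticle genes were lower in enterocytes. Of 10 enterocyte markers, 6 were tested, of which *mesh* (5.01) and *Tsp2A* (3.94) were higher and *nub* (-1.62) was lower. Without replicate 4, the 6 fat body markers were higher by 2.17 to 2.83 and the 6 glue genes by 2.05 to 2.82, the 4 cuticle genes stayed lower, and *mesh* was the only enterocyte marker called. The part of these transcripts in the enzyme result was not tested.

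Enterocyte nuclei differed in their enzyme share far more in some libraries than in others. In replicate 4 the median nucleus held 3.70%, with quartiles of 3.17% and 4.24%, and 90.7% of the 1508 nuclei lay within the 95% range that counting error alone gives around the library's median. In replicate 1 the median was 1.12%, with quartiles of 0.333% and 2.82%, and 44.1% of the 161 nuclei lay within that range. In replicate 6 the median was 0.186%, and 45.5% of the 189 nuclei had an enzyme gene with a rounded count of at least 1. Few nuclei carried most of the enzyme UMIs in replicates 1 and 8. In replicate 1, 22 nuclei with a share of at least 10% held 78.8% of the enterocytes' enzyme UMIs, and in replicate 8, 3 nuclei held 80.4%. In replicate 4, 11 such nuclei held 8.38%. Replicate 6 had 1, which held 12.7%, and replicates 2, 3, 5 and 7 had none, with highest shares of 1.70% to 5.29%.

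**Figure D3:**
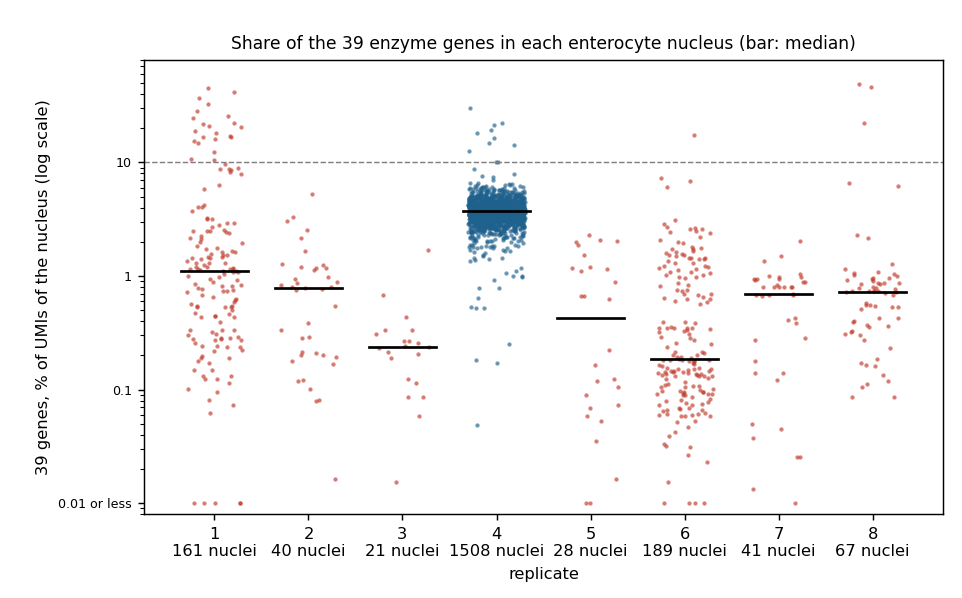
Share of the 39 enzyme genes in each enterocyte nucleus, in percent of its UMIs on a log axis, by replicate, with values up to 0.01% drawn at 0.01%. Bars are medians and the dashed line marks 10%. The 1508 nuclei of replicate 4 lay close to 3.70%, whereas those of replicate 1 spread from below 0.1% to 45.6%.

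The mix of enzymes was then compared between the enterocytes and the other clusters of the same library, over 16 genes with over 1000 UMIs (*Mal-A5* left out). In replicate 4 the mixes were nearly the same. *LysD* made up 11.5% of the enzyme UMIs in enterocytes and 11.8% in other clusters, *Jon65Aiv* 10.4% and 10.1%, and *deltaTry* 8.25% and 8.61%. There, 15 of the 16 genes lay within 1.3-fold of their share in other clusters, from 0.787 times for *LysS* to 1.34 times for *Jon65Aiii*. In replicate 1 only 3 genes did, from 0.192 times for *Jon99Fi* to 3.69 times for *Jon65Aiii*, and *Jon65Aiv* alone made up 30.03% in enterocytes and 10.6% in other clusters. In replicate 8, 3 genes did, from 0.0455 times for *LysS* to 4.27 times for *Jon65Ai*. The share of UMIs that would have to move between genes to make the mixes equal was 4.17 percentage points in replicate 4 and 5.98 to 33.7 points in the other libraries. The mixes were also close in replicates 7 and 2, with 12 and 11 genes within 1.3-fold (5.98 and 7.12 points), and less so in replicates 3, 5 and 6, with 5, 3 and 3 genes. Whether the enzyme UMIs of replicate 4 enterocytes came from free RNA was not tested.

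Across all clusters, 50 nuclei had an enzyme share of at least 10%, of which 37 were in cluster 3 and 13 in fat body cluster 15. Replicate 1 gave 28 of them, replicate 4 gave 17, replicate 8 gave 3 and replicates 5 and 6 gave 1 each. The threshold was chosen after the values were seen. The nucleus just inside it held 10.0% and the one just outside 9.89%, while 194 nuclei held at least 5% and 20 at least 20%. The most abundant enzyme gene was *Jon65Aiv* in 17 nuclei, *LysD* in 17, *deltaTry* in 6, *Jon25Biii*, *Jon99Cii* and *Jon99Ciii* in 3 each and *Jon66Ci* in 1.

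These nuclei were grouped by which of 3 sets of genes made up most of their enzyme UMIs. The sets were drawn from these same nuclei, so the values are a description. In 11 nuclei, all in cluster 3 and from replicates 1 and 4, *Jon65Aiii* and *Jon65Aiv* made up a median of 98.5% of the enzyme UMIs, and at least 90% in 9 of them. In 28 nuclei of replicates 1, 4, 5 and 6, *LysB*, *LysD*, *LysS*, *deltaTry*, *alphaTry*, *Jon25Bi* and *Jon25Bii* made up a median of 80.2%, but at least 90% in only 1 of them and as little as 44.3%, with up to 49.6% from the first set. Of these 28 nuclei, 18 were in cluster 3 and 10 in cluster 15. In 11 nuclei of replicates 1, 4 and 8, *Jon25Biii*, *Jon99Cii*, *Jon99Ciii*, *Jon66Ci*, *Jon65Ai*, *Jon65Aii* and the amylases made up a median of 89.7%, at least 90% in 5 of them and as little as 43.3%. Many of these nuclei thus held a mix of the sets. In the enterocytes of replicate 4 below 10%, the same sets made up 13.9%, 35.7% and 41.9% of the enzyme UMIs, against 13.5%, 36.1% and 40.7% in the other clusters of that library.

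**Figure D4:**
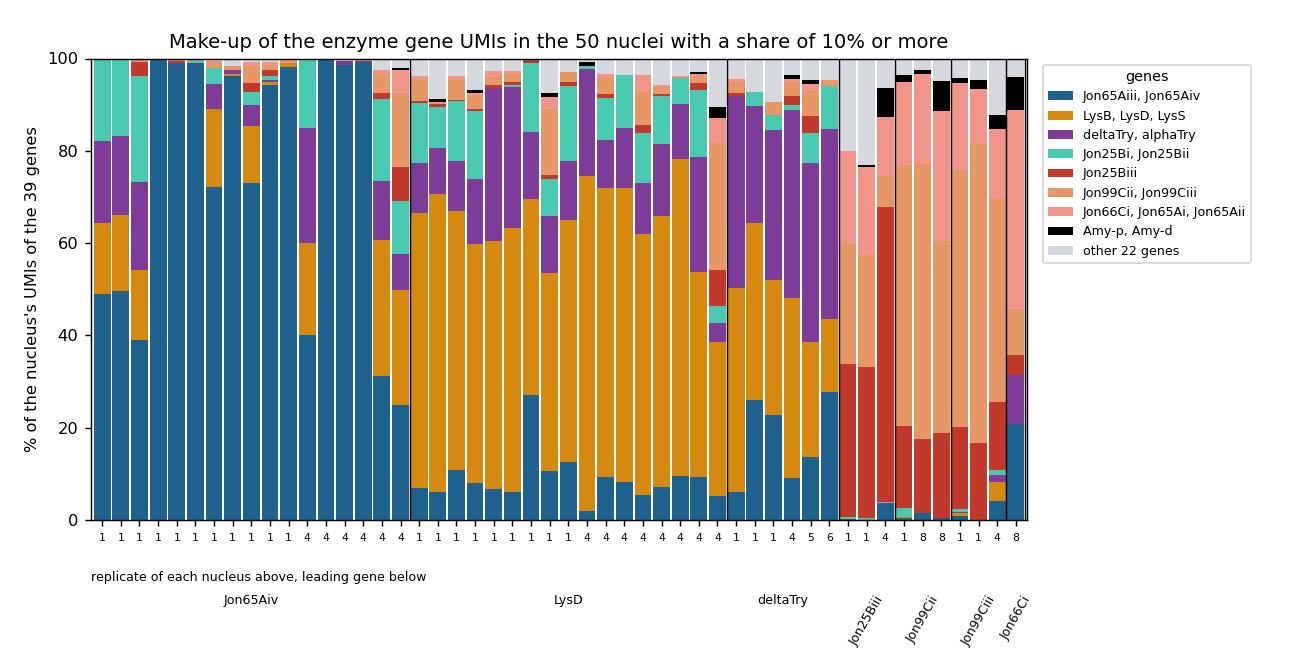
Make-up of the enzyme UMIs in the 50 nuclei with an enzyme share of at least 10%, each bar 1 nucleus that adds up to 100%, ordered by its most abundant enzyme gene, with its replicate number below. The 34 nuclei led by *Jon65Aiv* or *LysD* held a median of 0.439% *Jon25Biii* (at most 7.90%), and the 9 led by *Jon25Biii*, *Jon99Cii* or *Jon99Ciii* held a median of 0.251% lysozymes and trypsins (at most 5.72%).

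Genes of 1 locus did not always go together in these nuclei. Within the *Jon65A* locus, 44 of the nuclei had at least 10 UMIs, and *Jon65Aiii* with *Jon65Aiv* made up at least 90% of them in 32, whereas *Jon65Ai* with *Jon65Aii* did so in 4. Within the *Jon25B* locus, *Jon25Bi* with *Jon25Bii* made up at least 90% in 15 of 30 nuclei and *Jon25Biii* in 10. *LysB* with *LysD*, set against *Jon99Cii* with *Jon99Ciii*, made up at least 90% in 24 of 41 nuclei and at most 10% in 10. *LysB* with *LysD* and *Jon99Cii* with *Jon99Ciii* were found together. Distance did not mark such pairs. *LysB* and *LysD* lie 2735 bases apart, farther than *Jon65Aii* and *Jon65Aiii*, which lie 630 bases apart and fell in the opposed sets above. *LysD* made up a median of 60.6% of *LysB* and *LysD* UMIs, and all 32 nuclei lay between 10% and 90%. *Jon99Cii* made up a median of 49.98% of *Jon99Cii* and *Jon99Ciii* UMIs, with all 17 nuclei between those limits. Both are pairs whose reads may be shared.

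*Mal-A6*, itself 1 of the 39 genes, and marker levels in the same nuclei are given as a description. In cluster 3, the 37 nuclei with at least 10% had *Mal-A6* at 569 CPM and *mesh* at 296 CPM. The 1497 nuclei of replicate 4 below 10% had 99.5 and 29.4 CPM of these genes. The 521 nuclei of the other libraries below 10% had 23.97 and 296 CPM, so pooled *mesh* stood at the same level as in the nuclei with at least 10%. The sets were not matched by library. Replicate 1 gave 22 of the 37 nuclei, and *mesh* in its enterocytes had 787 CPM, against 79.8 CPM or less in every other library. The 10 enterocyte markers summed to 0.156% of UMIs in the 37 nuclei, 0.0313% in the 1497 and 0.0989% in the 521. The enterocyte markers *Tsp2A* and *Ssk* had 192 and 330 CPM in the nuclei with at least 10%. Both were lower in the 521 nuclei, at 49.6 and 59.2 CPM, and in the 1497 nuclei, at 30.8 and 28.4 CPM. In cluster 15, the 13 nuclei with at least 10% had *Mal-A6* at 951 CPM and *Mal-A5* at 123 CPM, and the fat body markers summed to 6.85% of UMIs. The 740 nuclei of cluster 15 below 10% had *Mal-A6* at 156 CPM, *Mal-A5* at 383 CPM and fat body markers at 16.5%. *Tsp2A* and *Ssk* had 222 and 233 CPM in the 13 nuclei, against 16.6 and 18.1 CPM in the 740, and *mesh* had 20.2 against 5.89 CPM.

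Between enterocytes and gut stem cells, only 7 enzyme genes passed the filter on low counts, which a gene that is high in enterocytes passes more easily. All 7 were called higher in enterocytes and 0 lower by edgeR's quasi-likelihood test with Benjamini-Hochberg adjustment, and 27.9% of the 1208 tested genes were called higher. Their log2 fold changes were 4.86 for *Jon99Cii*, 5.23 for *Jon99Ciii*, 5.27 for *LysB*, 5.36 for *Jon25Biii*, 5.46 for *deltaTry*, 5.52 for *LysD* and 5.53 for *Jon65Aiv*. The median was 5.36 against 0.10 over all tested genes. Without replicate 4 the same 7 were called, with *LysD* at 3.80 and *Jon99Cii* at 3.66. *LysD* ran from 413 to 4515 CPM in enterocytes, against 24.8 to 281 CPM in gut stem cells, with no overlap. Fat body markers (5 of 5), glue genes (4 of 4) and cuticle genes (4 of 4) were also higher in enterocytes here, with and without replicate 4, and their part in the result was not tested. Of 2 enterocyte markers tested, 0 were higher and 1 was lower in enterocytes, and the 3 stem cell markers tested had no call. *Sox21a* and *esg*, which were not tested, had pooled levels of 203 and 109 CPM in gut stem cells, against 3.11 and 8.00 CPM in enterocytes. On plain CPM, 12 of 39 genes were higher in all 8 libraries, and none passed adjustment in the exact permutation test (adjusted p = 0.0972 at best).

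No enzyme gene was called higher in gut stem cells than in other clusters. Thinned to 300 UMIs, however, more of their nuclei held an enzyme UMI in every library but replicate 4, as given above. Of 23 genes tested, edgeR's quasi-likelihood test with Benjamini-Hochberg adjustment called 0 higher and 4 lower in gut stem cells, while 11.7% of the 7127 tested genes were called higher and 31.9% lower. The lower genes were *Jon66Ci* (log2 fold change -1.09, SE 0.28, adjusted p = 0.00298), *Jon99Ciii* (-0.63, 0.0264), *Jon99Fii* (-1.04, 0.0304) and *Mal-A5* (-2.36, 0.0179). Without replicate 4 only 1 gene stayed called. The median over the tested enzyme genes was -0.53 against -0.36 over all genes. *Jon66Ci* had 17.9 to 70.9 CPM in gut stem cells (median 40.5), against 36.8 to 78.6 CPM in other clusters (median 61.5), and the groups overlapped. On plain CPM, no enzyme gene was higher in gut stem cells in all 8 libraries, and *LysX*, *Mal-A2* and *Mal-A3* were lower in all 8 (exact permutation test, adjusted p = 0.0282). *LysP* and *Mal-A5* also passed that test as lower (adjusted p = 0.0411), whereas *Jon66Ci* (0.113), *Jon99Ciii* (0.715) and *Jon99Fii* (0.256) did not. *LysX*, *Mal-A2*, *Mal-A3* and *LysP* were at 0 in gut stem cells, where 3 counts over the whole group would be 4.03 CPM. These 4 genes had only 36.3 to 77.2 UMIs over all nuclei, and a library held 36 to 89 gut stem cell nuclei. At that depth a sum of 0 says little, so no lower level is read from the permutation results of these 4 genes. With the replicate number as a block, 5 genes were lower, *LysD* being the added one (-0.68, adjusted p = 0.0324).

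In fat body, 25 enzyme genes were called higher than in other clusters and 0 lower, by edgeR's quasi-likelihood test with the same adjustment, and of the 7329 tested genes 33.5% were called higher and 42.0% lower. These 25 were all that passed the filter, which a gene that is high in fat body passes more easily, and 14 did not pass it. They comprised 15 *Jon*, 2 *Mal-A*, 3 *Try*, 3 *Lys* and both *Amy* genes, with log2 fold changes of 1.88 to 6.88 and a median of 2.62 against -0.27 over all genes. With library totals alone, an alternative chosen after the data were seen, 24 were called higher, with a median of 1.81 against -1.21 over all genes. Calls over all genes were then 1381 higher and 4253 lower, against 2456 and 3077 with TMM. Library by library, only 4 of 39 genes were higher in fat body in all 8, and 5 passed the exact permutation test on plain CPM after adjustment over all genes, namely *Mal-A5*, *Mal-A6*, *Jon25Bi*, *Jon66Cii* and *Jon65Aiii*.

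Most enzyme genes were high in fat body in only some libraries. *LysD* had 1298, 205, 142, 2268, 779, 482, 54.3 and 85.5 CPM in fat body of replicates 1 to 8, against 32.3 to 292 CPM in other clusters. It was higher in fat body in 5 of 8 libraries, highest in replicates 1 and 4, and the groups overlapped. *Jon99Cii* had 178 to 1994 CPM in fat body (median 354), against 108 to 355 CPM in other clusters (median 258), and was higher in 5 of 8 libraries. *deltaTry* had 28.7 to 1722 CPM in fat body (median 188), against 28.6 to 212 CPM in other clusters (median 105), and was higher in 4 of 8. Cluster 15 carried most of this. Its summed enzyme share ran from 0.166% to 2.43% over the libraries, with a median of 0.678%, and medians were 0.242% in cluster 4 and 0.229% in cluster 13. *LysD* had a median of 716 CPM in cluster 15, 181 CPM in cluster 4 and 91.8 CPM in cluster 13. With cluster 15 left out, an alternative chosen after the data were seen, 20 of 24 tested genes were called higher in fat body. The log2 fold changes were then 1.70 for *LysD* (3.07 with cluster 15), 1.43 for *deltaTry* (2.98) and 1.47 for *Jon65Aiv* (2.62). The share called over all genes is not given for this fit, so the count of calls is not set against it.

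The less abundant *Jon* genes overlapped between fat body and other clusters too. *Jon25Bi* had 26.9 to 665 CPM in fat body, against 7.19 to 92.2 CPM in other clusters, with a log2 fold change of 3.18. *Jon99Fi* had 19.9 to 198 CPM against 11.6 to 55.5 CPM (2.36), and *Jon99Fii* 12.4 to 295 CPM against 24.9 to 69.1 CPM (2.26). *Jon99Ci* had 0 to 77.9 CPM against 3.60 to 24.1 CPM (1.88), *Jon65Aii* 0 to 145 CPM against 2.27 to 17.7 CPM (2.40) and *Jon44E* 0 to 26.9 CPM against 3.22 to 9.75 CPM (2.19). The log2 fold change was 3.30 for *Jon25Bii*, 2.39 for *Jon65Ai*, 2.58 for *Jon66Cii* and 2.74 for *Jon65Aiii*. Of the trypsin genes, *alphaTry* had 3.99 and *thetaTry* 3.11. *thetaTry* ran from 0 to 46.2 CPM in fat body, against 1.42 to 8.62 CPM in other clusters. All are calls of the fit above.

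*Mal-A5* and *Mal-A6* stood apart from the other 37 genes. These maltase genes are neighbours on the plus strand of 2R, 65 bases apart, at 8462753 to 8465092 and 8465158 to 8467595. *Mal-A5* had 546, 52.9, 707, 509, 757, 677, 918 and 876 CPM in fat body of replicates 1 to 8, against 6.08 to 22.6 CPM in other clusters, with no overlap. The low value was that of replicate 2, which had 14 fat body nuclei. The log2 fold change was 6.43 (SE 0.57, edgeR adjusted p = 4.21e-09). *Mal-A6* had 171, 119, 183, 192, 150, 110, 110 and 152 CPM in fat body, against 0.696 to 7.75 CPM in other clusters, also with no overlap, and its log2 fold change was 6.88 (SE 0.43, edgeR adjusted p = 3.93e-11). Both were higher in fat body in 8 of 8 libraries on plain CPM (exact permutation p = 0.00781, the smallest possible, adjusted p = 0.0219).

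**Figure D5:**
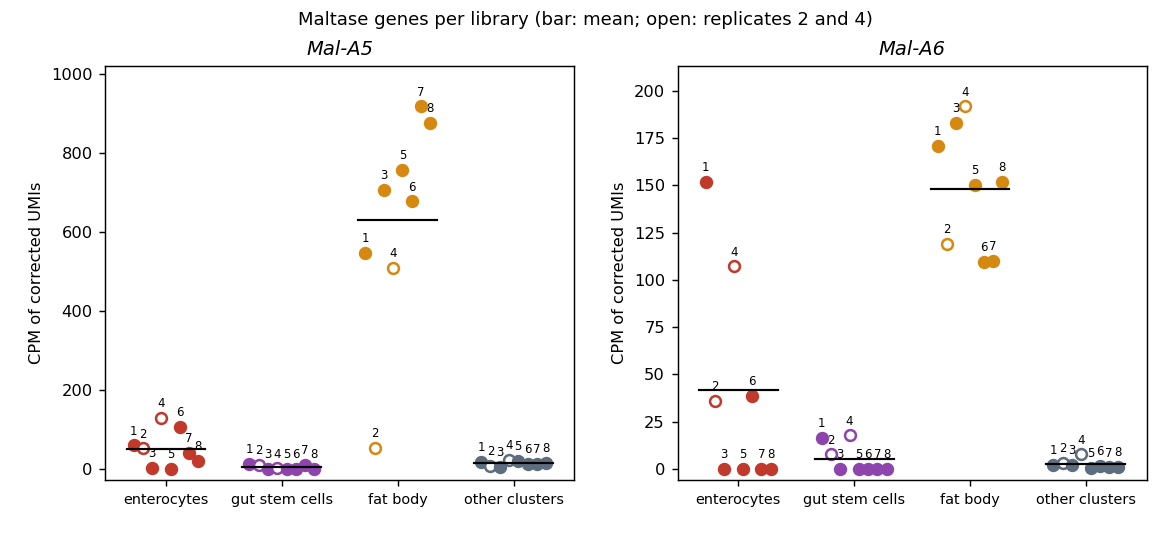
Levels of *Mal-A5* and *Mal-A6* in CPM of corrected UMIs in enterocytes, gut stem cells, fat body and other clusters, 1 point per library with its replicate number, replicates 2 and 4 open and bars at the mean. *Mal-A5* in fat body averaged 630 CPM and lay at 509 CPM or more except in replicate 2 (52.9 CPM), and *Mal-A6* in fat body lay between 110 and 192 CPM.

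High levels of these maltases were not confined to cluster 15. *Mal-A5* had medians of 768 CPM in cluster 4, 848 CPM in cluster 13 and 352 CPM in cluster 15, and *Mal-A6* of 103, 165 and 135 CPM. Pooled over libraries, however, *Mal-A6* was highest in cluster 15, with 180 CPM, against 164 CPM in cluster 13 and 102 CPM in cluster 4. The other maltase genes were scarce in fat body. *Mal-A8* had 0 to 44.2 CPM there (median 7.39), against 0.128 to 4.69 CPM in other clusters, and *Mal-A4* had 0 to 22.5 CPM (median 5.56), against 1.13 to 5.54 CPM.

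Enterocytes and fat body differed in both directions. edgeR's quasi-likelihood test with Benjamini-Hochberg adjustment called 5 of 19 tested enzyme genes higher and 2 lower in enterocytes, and 34.3% of the 2017 tested genes were called higher and 36.3% lower. The share of enzyme genes called higher thus lay below that of all genes. The higher genes were *Jon66Ci* (log2 fold change 2.51, SE 0.78, adjusted p = 0.00767), *Jon65Aiii* (2.18, 0.0266), *Jon66Cii* (2.08, 0.00573), *Jon65Aiv* (1.93, 0.0378) and *Jon65Ai* (1.86, 0.0259). The lower genes were *Mal-A5* (-4.41, SE 0.72, adjusted p = 6.98e-05) and *Mal-A6* (-2.30, SE 0.58, adjusted p = 0.0019). The 2 trypsin and 3 lysozyme genes tested had log2 fold changes of 0.16 to 0.88, with no call. Without replicate 4 *Mal-A5* was at -5.21 and *Mal-A6* at -2.89. On plain CPM, 6 of 39 genes were higher and 2 lower in enterocytes in all 8 libraries, and none passed adjustment in the exact permutation test (*Mal-A5* and *Mal-A6* p = 0.00781, adjusted p = 0.138). With the replicate number as a block, *Jon66Cii* (adjusted p = 0.0172) and *Jon65Ai* (0.0302) stayed higher and the other 3 did not pass, with adjusted p of 0.0987 to 0.105. Without replicate 4, 3 genes were called higher, without replicate 8, 2 genes, and without replicate 2, 11 genes. With cluster 15 left out of the fat body, 14 of 16 tested genes were called higher. The share called over all genes is not given for that fit, so this count is not set against it.

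*Mal-A5* had 59.8, 52.4, 2.76, 129, 0, 107, 41.5 and 20.3 CPM in enterocytes of replicates 1 to 8, against 52.9 to 918 CPM in fat body. It was lower in enterocytes in 8 of 8 libraries, most narrowly in replicate 2. *Mal-A6* had 152 CPM in enterocytes of replicate 1, 107 CPM in replicate 4, 36 and 38.6 CPM in replicates 2 and 6 and almost nothing in the other 4, against 110 to 192 CPM in fat body. It too was lower in all 8 libraries. *Jon66Ci* ran the other way, from 79.1 to 7208 CPM in enterocytes (median 422), against 34.02 to 484 CPM in fat body (median 101), and was higher in 8 of 8. Fat body markers were lower in enterocytes (6 of 6), and glue genes (5 tested) and cuticle genes (4 tested) had no call.

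A list of 30 other genes of digestion, 28 of them in the matrix, showed where the enzyme families stood among their kind. In enterocytes against other clusters, 13 were tested, of which 9 were higher and 1 lower. The higher ones included *PGRP-SC2*, which encodes an amidase that cuts peptidoglycan (log2 fold change 6.23), *yip7*, a serine protease gene (5.40), *Amyrel*, an amylase-related gene (4.59), and *mag*, a lipase gene (3.93). *Peritrophin-A* was lower (-1.49). Without replicate 4, 9 of 13 were again higher and 1 lower. In fat body against other clusters, 12 of 13 were higher and 1 lower, with the mannosidase genes *LManI* (3.71) and *LManII* (3.43) and the maltase gene *Mal-B2* (1.85) among the higher ones. In enterocytes against fat body, 4 of 7 were higher and 2 lower, and those 2 were *Mal-B2* (-2.10) and *LManII* (-2.62), against 3 higher and 1 lower of 4 without replicate 4. In gut stem cells against other clusters, 0 of 11 were higher and 4 lower. Each call is from edgeR's quasi-likelihood test in the fits described above.

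The rarest genes were spread thinly. *LysE*, *LysX*, *LysP*, *Jon74E*, *Mal-A1*, *Mal-A2*, *Mal-A3*, *Mal-A7*, *zetaTry*, *etaTry*, *iotaTry* and *kappaTry* each had fewer than 150 UMIs in all and did not pass edgeR's filter in any comparison. *LysE* had 0 to 29.9 CPM in enterocytes, against 0.115 to 3.06 CPM in other clusters. *LysP*, *Mal-A3*, *Mal-A7* and *kappaTry*, chosen after their values were seen, peaked outside the gut. *LysP* had 39.04 UMIs in 25 nuclei. Cluster 27, a mixed cluster of 69 nuclei in which glue transcripts made up 8.81% of UMIs, held 15 of them in 2 nuclei, 12 in a nucleus of replicate 4 and 3 in a nucleus of replicate 8. *Mal-A3* had 77.2 UMIs in all, of which 15.3 were in 15 nuclei of the gonad cluster, at 35.2 CPM, against 17.2 CPM in enterocytes. *Mal-A7* (25.7 CPM, 1.88 UMIs in 2 nuclei) and *kappaTry* (13.7 CPM, from a single nucleus) peaked in cluster 27 as well. These peaks rest on few counts.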

How the data were processed

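Single-nucleus RNA sequencing was done on 8 pools of larvae, each giving 1 library. The authors made the deposited matrix of expected counts by counting UMIs with Cell Ranger (version 7.1.0, against BDGP6, both per the submitters' processing notes), subtracting ambient RNA with DecontX and removing sparse nuclei and doublets. They joined the libraries with Harmony, clustered the nuclei and named the clusters. No doublet caller was run again, and the mixed clusters were used as deposited. The barcodes' last number names the replicate.

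The expected counts were summed per library and group of nuclei and then rounded, as whole counts are needed by edgeR and DESeq2. CPM are these sums, before rounding, per 1000000 UMIs of the group in that library. edgeR (version 4.0.16, R 4.3.3) with TMM size factors, its filter on low counts and the quasi-likelihood test compared groups over the 8 libraries, with Benjamini-Hochberg adjustment over all genes tested and a threshold of 0.05. Exact paired permutation tests over libraries, two-sided, used log2(CPM + 1). A member UMI in a nucleus was a rounded count of at least 1, and nuclei were thinned to 300 UMIs for shares. Python 3.11.15 with numpy 2.4.6, scipy 1.17.1, pandas 2.3.3 and matplotlib 3.10.9 was used, and DESeq2 1.42.0 as an alternative. The scripts were tested on simulated data. Positions were read from annotation BDGP6.54.

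Sums of a replicate come from 1 library, so the replicate numbers pair them. Deviations from the group means correlated by a median of 0.03 to 0.17 within a number over the 5 comparisons, and of -0.05 to -0.01 across numbers. Values are given for the 4 most abundant genes of each family, both amylase genes and the genes called in gut stem cells or fat body against other clusters. The genes, lists and tests were chosen with earlier results of these data known. Other alternatives were no filter, DESeq2, each library left out, shallow nuclei or shared barcodes left out, and other clusters without the 8 mixed ones.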

Additional observations from a re-analysis of the deposited data

Results flagged for a closer look

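For 45 groups of 8 library values, the highest or lowest library was set against the range of the group by Dixon's criterion. Chance passes it in about 1 of 20 groups if values are independent and normally distributed. It was passed in 10. The values here were on the plain scale and some groups share genes, so this count is not set against that rate. In fat body, replicate 1 was high for *Jon99Ciii* (1853 CPM, against 159 to 832 CPM in the other libraries), *Jon99Cii* (1994, against 178 to 861 CPM), *Jon25Biii* (1103, against 11.3 to 483 CPM) and *Mal-A4* (22.5, against 0 to 6.21 CPM). Replicate 4 was high in fat body for *Mal-A8* (44.2, against 0 to 20.4 CPM). Replicate 2, with 14 fat body nuclei, was low for *Mal-A5* (52.9, against 509 to 918 CPM).

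In enterocytes, replicate 1 was high for *Jon65Aiv* (14823, against 216 to 4074 CPM) and replicate 4 for *zetaTry* (59.3, against 0 to 4.79 CPM). Replicate 8 was high for *Amy-p* (1219, against 0 to 284 CPM) and for the summed *Amy* share (0.152% of UMIs, against 0.00233% to 0.0539%). Both values rest on few nuclei, as 3 of its 67 enterocyte nuclei held 80.4% of their enzyme UMIs.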

How the results depend on the processing

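No called value changed direction under the alternatives run. The count of enzyme genes higher in enterocytes than in fat body, 5 as reported, was 2 with DESeq2's size factors, 2 with DESeq2 and 2 with the replicate block. It was 10 with library totals alone, 11 with libraries of at least 20 nuclei in both groups, 14 without cluster 15 in the fat body, and 2 to 11 when libraries were left out in turn. Without the filter on low counts, 37 genes were higher in enterocytes than in gut stem cells and 38 than in other clusters. Those 2 counts take in genes with fewer than 150 UMIs in all, so they rest in part on few counts. Except where printed, the share called over all genes is not given for these alternatives, and their counts are not set against it. The count lower in gut stem cells than in other clusters, 4 as reported, was 1 with library totals alone, 2 without the mixed clusters and 1 to 5 when libraries were left out in turn. Nuclei with any corrected count above 0 made up 98.6% of enterocytes and 89.6% of other clusters, and after thinning 34.1% of gut stem cells, 51.3% of fat body and 24.7% of other clusters had an enzyme UMI. For single genes, 1550 values kept their sign and call status, 38 lost a call and 26 gained one. Another 36, called neither in the main fit nor in the alternative, changed sign. The replicate block changed no other count by over 1.5 times.

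The median log2 fold change of all genes shifted with the size factors. With DESeq2's factors it moved by -0.58 for enterocytes against fat body, 0.45 for enterocytes and 0.57 for fat body against other clusters. With library totals it moved by 1.11 for enterocytes against fat body, -0.61 for enterocytes against gut stem cells, 0.47 for gut stem cells and -0.93 for fat body against other clusters. The calls over all genes were then 967 higher and 332 lower for enterocytes against fat body (692 and 733 with TMM), 235 and 368 for enterocytes against gut stem cells (337 and 201), and 1616 and 1603 for gut stem cells against other clusters (835 and 2274). With DESeq2's factors they were 463 and 875 for enterocytes against fat body and 3152 and 2455 for fat body against other clusters. The cause of these changes was not tested. Enterocyte values outside replicate 4 rest on 547 nuclei in all, which limits what could be seen there.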
